A study of Mus musculus with 6 samples.

Results

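The genes described here encode the elastic fibre and the fibulins that go with it. Rows of the deposited expression table were taken by gene symbol from a list of 10 genes, and all 10 were found among the 18849 genes of the table. They are Eln, Fbn1, Mfap2, Mfap4, Mfap5, Fbln1, Fbln2, Fbln5, Efemp1 and Efemp2. The values come from whole-kidney RNA of male C57BL/6 mice aged 8 weeks, whose kidney had been obstructed for 14 days by unilateral ureteral obstruction (UUO), a surgical model that scars the kidney. The KO group holds 3 libraries from c-Abl Epi-cKO mice, which carry floxed c-Abl (Abl1) together with the transgene Ksp-Cre and whose genotype label reads c-Abl knockdown. Ksp-Cre is driven by the promoter of kidney-specific cadherin, so it is aimed at tubular epithelium, and other kidney cells should keep Abl1. Which cells recombined was not measured here. The floxed group holds 3 libraries from c-Abl flox/flox mice with no Cre, whose genotype label reads WT. Kidneys without obstruction were not analysed here, and no label ties a library to an animal of its own. The p-values therefore cover only how far these libraries spread, which may be technical.

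Elastic fibres give tissues their recoil. They have a core of crosslinked elastin laid on a scaffold of fibrillin microfibrils, and the fibulins and lysyl oxidases bring elastin to that scaffold and crosslink it. In the kidney they lie mainly in artery walls, while microfibrils also occur without elastin in the glomerulus and the interstitium. Fibrillins and the latent TGF-beta binding proteins also hold TGF-beta, the main profibrotic growth factor, in the matrix.

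The promoters of Efemp1, the gene whose mean hardly differed, of its sister Efemp2, whose mean did, and of the scaffold gene Fbn1 are shown, because the results turn on that contrast. Efemp1 encodes fibulin 3, Efemp2 encodes fibulin 4 and Fbn1 encodes fibrillin 1. RefSeq (GRCm38.p6) held promoter windows for 7 of the 10 genes, 12 windows in all, each running from 250 bases before to 50 bases after a gene start. The first window listed for each gene is printed 5′ to 3′ on the strand of the gene, with matches to the searched motifs in capitals. Efemp1 lies at chr11:28852955-28853254 on the plus strand, Efemp2 at chr19:5473696-5473995 on the plus strand and Fbn1 at chr2:125506389-125506688 on the minus strand.
Efemp1: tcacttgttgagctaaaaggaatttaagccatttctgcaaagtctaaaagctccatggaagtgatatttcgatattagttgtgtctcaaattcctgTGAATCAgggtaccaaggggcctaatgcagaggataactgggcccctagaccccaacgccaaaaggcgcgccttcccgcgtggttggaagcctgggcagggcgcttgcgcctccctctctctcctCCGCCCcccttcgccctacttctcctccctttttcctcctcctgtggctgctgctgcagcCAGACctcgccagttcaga
Efemp2: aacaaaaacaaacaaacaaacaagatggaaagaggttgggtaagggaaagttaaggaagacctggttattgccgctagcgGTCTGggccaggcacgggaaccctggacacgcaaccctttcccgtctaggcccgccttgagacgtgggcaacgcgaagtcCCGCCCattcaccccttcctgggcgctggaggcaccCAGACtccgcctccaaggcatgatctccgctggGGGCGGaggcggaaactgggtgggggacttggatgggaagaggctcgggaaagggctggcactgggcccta
Fbn1: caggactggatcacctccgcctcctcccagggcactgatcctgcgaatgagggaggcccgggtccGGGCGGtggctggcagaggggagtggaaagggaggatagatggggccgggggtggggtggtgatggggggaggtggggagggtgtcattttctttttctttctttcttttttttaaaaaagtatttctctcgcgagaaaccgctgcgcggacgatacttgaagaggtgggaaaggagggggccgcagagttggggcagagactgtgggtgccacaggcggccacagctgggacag
The motifs were searched on both strands, and no match to a motif overlapped a match to another motif. The GC box GGGCGG, bound by Sp1, was in 9 of the 12 windows and is in 35.7% of the 32851 RefSeq windows of the same length. The SMAD motif CAGAC was in 7 of the 12 windows (49.6% of all windows), and the TCF/LEF motif CTTTGA in 2 of the 12 (16.0% of all windows). TEAD's CATTCC was in 1 of the 12, a window of Mfap2 (14.7% of all windows), and the AP-1 motif TGANTCA in 1 of the 12, that of Efemp1 (7.81% of all windows). The TATA box TATAAA was in none of the 12 windows and is in 13.6% of all windows. Some windows of the same gene overlap, so the same site can be counted more than once. By gene, the GC box was in 7 of 7 and the SMAD motif in 5 of 7. The TCF/LEF motif was in 2 of 7 genes, the TEAD and AP-1 motifs in 1 of 7 each, and the TATA box in none. The shares of all windows are per window, not per gene. All these matches describe letters in a window and say nothing about binding.

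Expression is given in FPKM, fragments scaled to the length of the gene and to all mapped fragments of the library, so levels can be compared between genes. Group means are ± SD with n = 3 libraries each. The log2 fold changes are KO minus floxed, computed on log2(FPKM + 1), where the added 1 shrinks the differences of weakly expressed genes, and SE is their standard error. They were tested by limma across the 13390 genes with at least 1 FPKM in at least 3 of the 6 libraries, with Benjamini-Hochberg adjustment over all of these at a threshold of 0.05. All 10 elastic fibre and fibulin genes passed that filter, with at least 1 FPKM in every library.

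The spacing of low values implied about 16150000 to 18000000 fragments per library. The targeted gene, Abl1, read 10.46, 14.45 and 12.91 FPKM in KO replicates 1, 2 and 3, against 18.16, 15.93 and 17.33 FPKM in floxed replicates 1, 2 and 3 (limma adjusted p = 0.144). Whole kidney includes cells that should keep Abl1, and what set the size of this difference was not tested. KO replicate 3 stood apart from its group. Principal component 1 (61.8% of the variance) placed it at -7.48, with KO replicates 1 and 2 at 54.1 and 37.4 and the floxed libraries between -29.0 and -26.2. The counts over the 10 genes and over the lists of related genes and markers are therefore also given without that library.

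Of the 10 genes, 9 had a lower mean in KO kidneys and 1, Efemp1, had nearly the same mean in both groups. None passed the adjusted limma threshold, which 0.0672% of all genes tested passed in either direction and 0.0373% passed as lower. At an unadjusted limma p under 0.05, 9 of the 10 were lower in KO kidneys, against 16.3% of all genes tested (24.7% in either direction). That count was also 9 with median-ratio scaling (11.3% of all genes tested) and with TPM scaling (16.1%), and with TPM scaling the adjusted threshold was passed by 0 of the 10 and by 0.0448% of all genes as lower. All 3 KO libraries lay below all 3 floxed libraries for 8 of the 10 genes, against 21.7% of all genes tested. The median log2 fold change of the 10 genes was -1.24, and that of all genes tested was -0.12. A log2 fold change of -1 or below was found for 8 of the 10 and for 3.53% of all genes tested. Without KO replicate 3, 9 of the 10 passed the adjusted limma threshold as lower, against 15.4% of all genes tested. At an unadjusted p under 0.05 the count without that library was again 9, against 27.1% of all genes tested. Leaving out any other library gave 0 of the 10 past the adjusted limma threshold and 6 to 9 at an unadjusted p under 0.05. Of all 13390 genes tested, 0 to 11 then passed the adjusted threshold as lower. At the unadjusted p, 1357 to 1620 of all genes tested were lower.

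**Figure D1:**
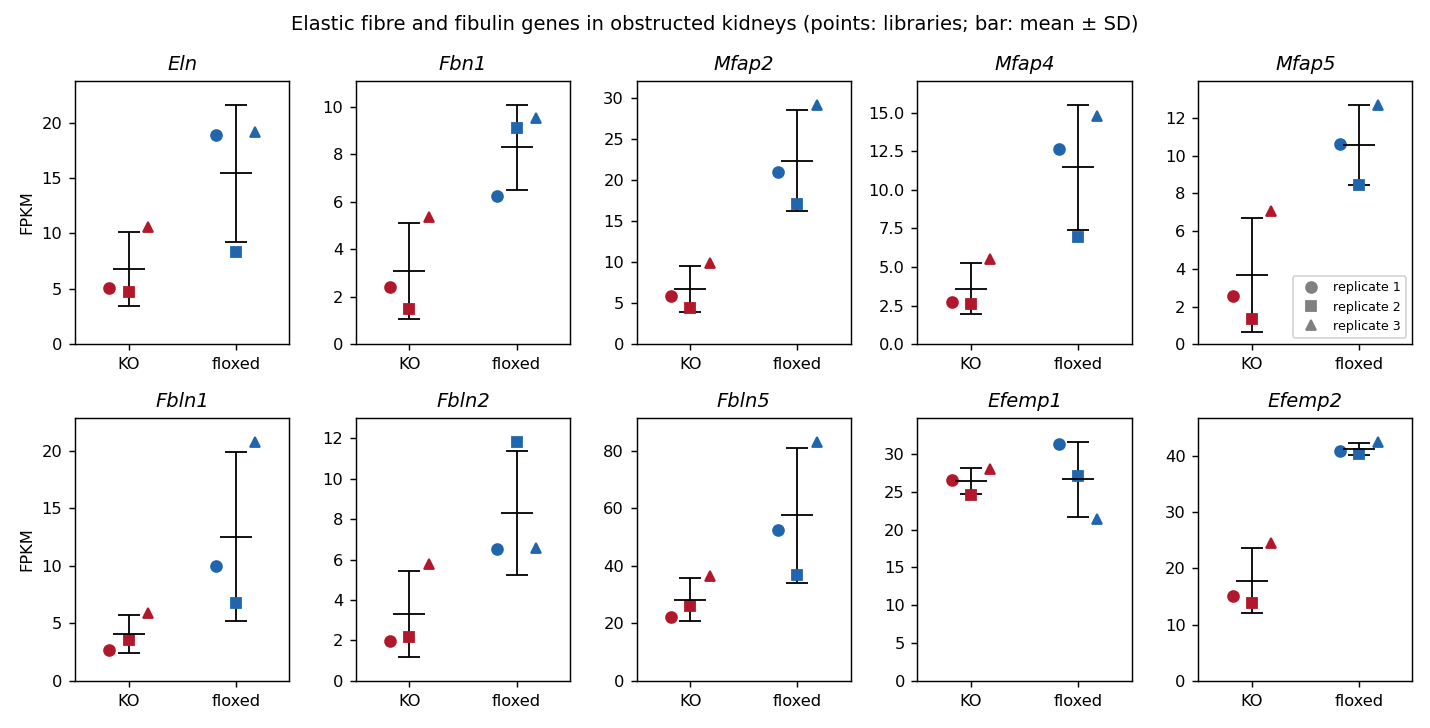
FPKM of the 10 genes in each library (KO red, floxed blue; the marker shape gives the replicate number; the bar is the mean ± SD of 3 libraries; each panel has its own axis from 0). KO replicate 3 is the highest KO library in all 10 panels, the groups do not overlap in 8, and Efemp1 lies between 21.47 and 31.38 FPKM throughout.

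Elastin itself (Eln, Entrez 13717), the crosslinked core of the fibre, read 5.03, 4.67 and 10.62 FPKM in KO replicates 1, 2 and 3, against 18.86, 8.3 and 19.12 FPKM in floxed replicates 1, 2 and 3. KO replicate 3 lay above floxed replicate 2, so the groups overlapped. The mean was 6.77 ± 3.34 FPKM in KO and 15.4 ± 6.17 FPKM in floxed kidneys, with a log2 fold change of -1.08 (SE 0.390, limma adjusted p = 0.160). The exact two-sided permutation p was 0.2, where the smallest that 3 against 3 libraries allow is 0.1.

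Of the 10 genes, the 3 microfibril-associated MFAP genes had the most negative log2 fold changes with all 6 libraries. That order did not hold each time 1 library was left out. Without floxed replicate 1, Fbn1 stood at -1.45 and Mfap4 at -1.34. Fibrillin 1 (Fbn1, Entrez 14118), which polymerises into the microfibril, read 2.4, 1.5 and 5.37 FPKM in KO replicates 1, 2 and 3, against 6.25, 9.09 and 9.53 FPKM in floxed replicates 1, 2 and 3. The groups did not overlap, though KO replicate 3 came within 1 FPKM of floxed replicate 1 (log2 fold change -1.28, SE 0.347, limma adjusted p = 0.102). Mfap2 (MAGP-1, Entrez 17150), a small glycoprotein that binds fibrillin along the microfibril, stood at 5.93, 4.47 and 9.9 FPKM in the KO libraries, against 20.97, 17.08 and 29.2 FPKM in the floxed libraries, each in replicate order. Every KO value was well below the lowest floxed value. Its mean was 6.77 ± 2.81 FPKM in KO and 22.4 ± 6.19 FPKM in floxed kidneys, a log2 fold change of -1.62 (SE 0.294, limma adjusted p = 0.0583) and the most negative of the 10 genes in this fit. With 0.1 added to FPKM in place of 1, Mfap5 was more negative, at -1.80 against -1.76 for Mfap2.

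Mfap5 (MAGP-2, Entrez 50530), a relative of Mfap2 that also binds fibrillin, read 2.56, 1.36 and 7.07 FPKM in KO replicates 1, 2 and 3, against 10.6, 8.45 and 12.68 FPKM in floxed replicates 1, 2 and 3. The KO libraries were widely spread, with replicate 3 just under the lowest floxed library (log2 fold change -1.49, SE 0.427, limma adjusted p = 0.110). Mfap4 (Entrez 76293), a fibrinogen-related glycoprotein that binds elastin and fibrillin, read 2.71, 2.6 and 5.52 FPKM in KO replicates, against 12.66, 6.95 and 14.77 FPKM in floxed replicates 1, 2 and 3. As for elastin, floxed replicate 2 was the lowest floxed library, yet all KO values lay below it (log2 fold change -1.43, SE 0.330, limma adjusted p = 0.0803). The lowest Mfap5 value rests on about 33 fragments and the highest on about 344, at the depth estimated above and the longest coding transcript in GENCODE.

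The short fibulins gave both the largest and the smallest contrast to their own spread. Fibulin 5 (Fbln5, Entrez 23876), which tethers elastin to microfibrils and cells, was the most abundant of the 10 genes in both groups. It read 22.03, 26.03 and 36.4 FPKM in KO replicates 1, 2 and 3, against 52.46, 36.91 and 83.07 FPKM in floxed replicates 1, 2 and 3. The groups were separated by about 0.5 FPKM only, between KO replicate 3 and floxed replicate 2 (log2 fold change -0.96, SE 0.311, limma adjusted p = 0.135). Fibulin 4 (Efemp2, Entrez 58859), which brings lysyl oxidase to elastin, read 15.05, 13.9 and 24.47 FPKM in KO replicates, against 40.74, 40.3 and 42.47 FPKM in floxed replicates 1, 2 and 3. The floxed libraries were nearly equal, and the KO libraries all lay well below them. Its mean was 17.8 ± 5.80 FPKM in KO and 41.2 ± 1.15 FPKM in floxed kidneys, a log2 fold change of -1.21 (SE 0.208, limma adjusted p = 0.0547) and the smallest p of the 10 genes.

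Fibulin 3 (Efemp1, Entrez 216616), a sister of fibulin 4 found in many basement membranes and connective tissues, did not follow the other 9. It read 26.62, 24.62 and 28.05 FPKM in KO replicates 1, 2 and 3, against 31.38, 27.13 and 21.47 FPKM in floxed replicates 1, 2 and 3. The KO values lay inside the floxed range. The log2 fold change was 0.0021 with a 95% interval of -0.37 to 0.37 (limma adjusted p = 0.995), so a change of the size seen for Efemp2 lies outside that interval, and changes of up to 0.37 in either direction lie within it. The sign of the Efemp1 value is not stable, being -0.052 with TPM scaling and 0.16 with median-ratio scaling.

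The larger fibulins, which occur in vessel walls and basement membranes, differed in which floxed library was high. Fibulin 1 (Fbln1, Entrez 14114) read 2.72, 3.55 and 5.91 FPKM in KO replicates 1, 2 and 3, against 9.97, 6.8 and 20.78 FPKM in floxed replicates 1, 2 and 3. Floxed replicate 3 was far above the other floxed libraries, and KO replicate 3 was just below floxed replicate 2 (log2 fold change -1.33, SE 0.401, limma adjusted p = 0.118). Fibulin 2 (Fbln2, Entrez 14115) read 1.99, 2.18 and 5.77 FPKM in KO replicates, against 6.5, 11.83 and 6.57 FPKM in floxed replicates 1, 2 and 3. Here floxed replicate 2 was the highest floxed library, the reverse of its place for elastin, Mfap4 and fibulin 5 (log2 fold change -1.17, SE 0.365, limma adjusted p = 0.127).

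**Figure D2:**
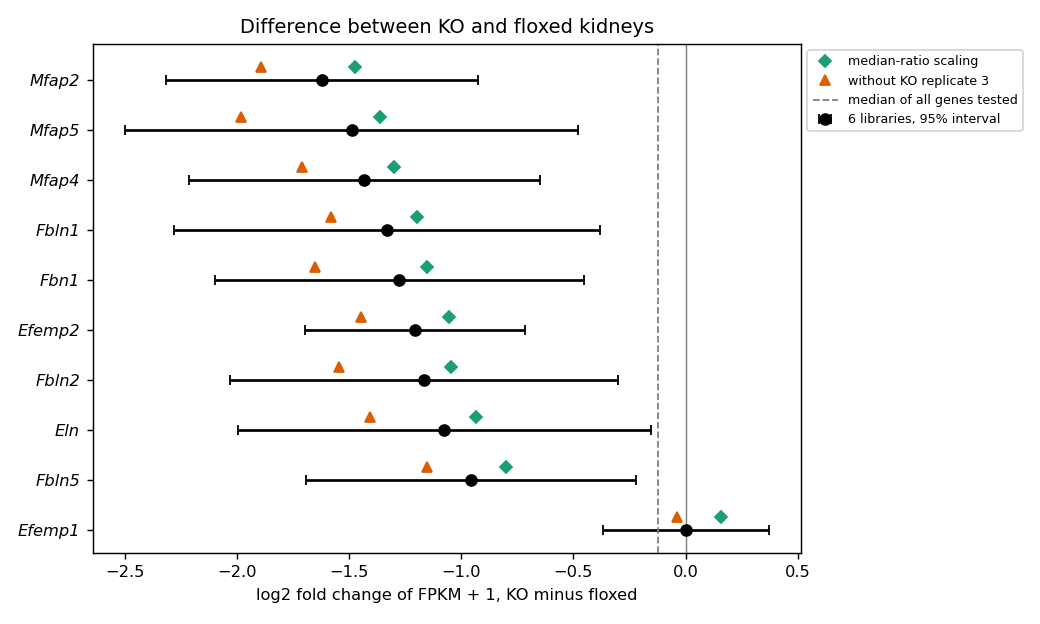
Log2 fold change of FPKM + 1, KO minus floxed, for each gene with its 95% interval over 6 libraries (black), and its value with median-ratio scaling (green) and without KO replicate 3 (orange). The estimates of 9 genes run from -1.62 for Mfap2 to -0.96 for Fbln5, their unadjusted intervals all lie below 0 and reach up to -0.15 for Eln, and that of Efemp1 spans -0.37 to 0.37.

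The order of the levels was headed by the short fibulins in both groups. In KO kidneys it ran Fbln5, Efemp1, Efemp2, Eln, Mfap2, Fbln1, Mfap5, Mfap4, Fbln2 and Fbn1 by mean FPKM. Only the steps from Efemp1 to Efemp2 and from Efemp2 to Eln had ranges that did not overlap. In floxed kidneys the order was Fbln5, Efemp2, Efemp1, Mfap2, Eln, Fbln1, Mfap4, Mfap5, Fbln2 and Fbn1. There only the step from Efemp2 to Efemp1 had ranges apart, so Efemp1 and Efemp2 stood in opposite order in the 2 groups. Summed over the 10 genes, the level was 87.04, 84.88 and 139.08 FPKM in KO replicates 1, 2 and 3, against 210.39, 172.84 and 259.66 FPKM in floxed replicates 1, 2 and 3.

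Ratios within a library do not depend on how libraries are scaled. Efemp1 was 1.77, 1.77 and 1.15 times Efemp2 in KO replicates 1, 2 and 3, against 0.770, 0.673 and 0.506 times in floxed replicates 1, 2 and 3. So fibulin 3 was above fibulin 4 in every KO library and below it in every floxed library. Efemp1 was taken as the numerator after its flat values were seen, so this ratio restates the difference between the 2 genes and is given without a test. Against elastin the groups overlapped. Efemp1 was 5.29, 5.27 and 2.64 times Eln in KO replicates 1, 2 and 3, against 1.66, 3.27 and 1.12 times in floxed replicates 1, 2 and 3. As a share of the summed FPKM of the 10 genes, Efemp1 made up 30.6%, 29.0% and 20.2% in KO replicates 1, 2 and 3, against 14.9%, 15.7% and 8.27% in floxed replicates 1, 2 and 3.

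Some ratios among the other genes overlapped between the groups, out of 17 ratios computed in all. Mfap5 was 0.432, 0.304 and 0.714 times Mfap2 in KO replicates 1, 2 and 3, against 0.505, 0.495 and 0.434 times in floxed replicates 1, 2 and 3 (exact two-sided permutation p = 0.8, 0.85 adjusted over the 17). Fbln5 was 4.38, 5.57 and 3.43 times Eln in KO replicates, against 2.78, 4.45 and 4.34 times in floxed replicates 1, 2 and 3 (exact two-sided permutation p = 0.6, 0.729 adjusted over the 17). With 3 libraries a group these tests cannot go below 0.1. Efemp2 was 0.571, 0.542 and 0.607 times Dcn, the fibroblast proteoglycan decorin, in KO replicates, against 0.517, 0.498 and 0.529 times in floxed replicates 1, 2 and 3. Dcn was chosen for this ratio after its values were seen, so no test is given. The ratio of Efemp2 to Dcn was slightly higher in all KO libraries, although each gene alone differed by over 1 on the log2 scale. Mfap2 over Dcn (mean 0.215 in KO and 0.280 in floxed kidneys) and Eln over Dcn (0.212 and 0.193) overlapped between the groups.

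**Figure D3:**
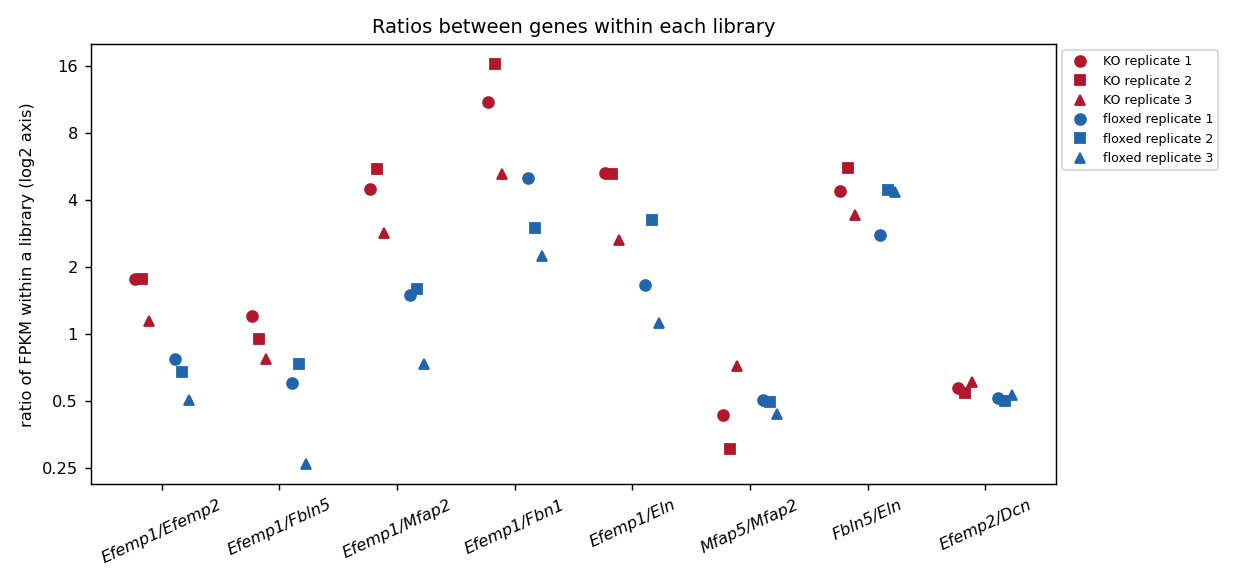
Ratio of FPKM between 2 genes within each library, on a log2 axis (KO red, left; floxed blue, right; the marker shape gives the replicate number). Efemp1 over Efemp2 lies above 1 in the 3 KO libraries and below 1 in the 3 floxed libraries, while Efemp1 over Eln, Mfap5 over Mfap2 and Fbln5 over Eln overlap.

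The libraries differed within each group in a way that many of the genes shared. KO replicate 3 was the highest KO library for all 10 genes, and KO replicate 2 the lowest for 7. The median difference from the floxed mean, on the log2(FPKM + 1) scale, was -1.51, -1.50 and -0.55 in KO replicates 1, 2 and 3. Among the floxed libraries, replicate 3 was the highest for 8 genes and replicate 2 the lowest for 7. Their medians on the same scale were -0.033, -0.31 and 0.32 in floxed replicates 1, 2 and 3.

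Marker genes of the cells that make elastic fibres moved with these values. In whole kidney, fewer cells of a type and less RNA per cell cannot be told apart. Fibroblast markers summed to 125 to 375 FPKM in KO and 618 to 814 FPKM in floxed libraries, with 10 of 10 below 0 and 8 of 10 lower at an unadjusted limma p under 0.05. Of all 13390 genes tested, 8761 were below 0, and 16.3% were lower and 8.38% higher at that p. Smooth muscle and pericyte markers summed to 74.3 to 197 FPKM in KO and 217 to 311 FPKM in floxed libraries, with 11 of 11 below 0 and 5 lower at that p. The highest KO library was replicate 3 in both lists, as for the 10 genes. KO replicate 3 also had the highest KO sum for macrophage, adventitial fibroblast, mesothelial, urothelial and lymphocyte markers. It did not for endothelial, podocyte, tubular, collecting duct and adipose markers. Macrophage markers, 8 of 8 lower at that p, summed to 385 to 662 FPKM in KO and 856 to 1182 FPKM in floxed libraries. Adventitial fibroblast markers, 4 of 7 tested lower at that p, summed to 810 to 1570 FPKM in KO and 787 to 1292 FPKM in floxed libraries, nearly all of it from Ly6a. Without Ly6a the other 7 summed to 44.9, 51.2 and 80.5 FPKM in KO replicates 1, 2 and 3, against 114, 74.4 and 98.9 FPKM in floxed replicates 1, 2 and 3. Podocyte markers, 5 of 6 lower at that p, summed to 70.6 to 93.6 FPKM in KO and 98.7 to 148 FPKM in floxed libraries. With median-ratio scaling 3 of 6 podocyte and 3 of 7 adventitial markers were lower at that p (11.3% of all genes tested). With 1 library left out it was 2 to 6 of the 6 podocyte markers, against 1357 to 3633 of all 13390 genes tested. Proximal tubule markers went the other way, at 785 to 3123 FPKM in KO and 455 to 677 FPKM in floxed libraries, with 6 of 8 higher at that p, and they were present in every library of this kidney tissue. Markers of the thick ascending limb and distal tubule (1066 to 1830 FPKM in KO, 774 to 963 FPKM in floxed libraries) and of the collecting duct (122 to 556 FPKM in KO, 54.4 to 111 FPKM in floxed libraries) were each higher at that p in 5 of 6 tested. Without KO replicate 3, the adjusted limma threshold was passed as lower by 9 of 10 fibroblast, 5 of 11 smooth muscle, 3 of 7 adventitial, 8 of 8 macrophage and 2 of 6 podocyte markers. It was then passed as higher by 8 of 8 proximal tubule, 6 of 6 thick ascending limb and distal tubule and 5 of 6 collecting duct markers. In that setting 15.4% of all genes tested passed as lower and 9.02% as higher. The part of these cell types in the values above was not tested.

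Other markers moved within the floxed group. At an unadjusted limma p under 0.05, 16.3% of all genes tested were lower and 8.38% higher. Endothelial markers, 1 of 8 lower at an unadjusted limma p under 0.05, summed to 125 to 158 FPKM in KO libraries. Their sums were 237, 129 and 241 FPKM in floxed replicates 1, 2 and 3, so floxed replicate 2 was low. That library was also the lowest floxed library for 7 of the elastic fibre and fibulin genes, all but Fbn1, Fbln2 and Efemp1. Without floxed replicate 2, 7 of the 8 endothelial markers were lower at that p, against 1620 of all 13390 genes tested. Their median log2 fold change was then -0.72, against -0.39 with all 6 libraries. Without floxed replicate 1 or 3, 0 of the 8 were lower at that p, with medians of -0.28 and -0.27. Without KO replicate 1 it was also 0 of the 8. Lymphocyte markers, 0 of 6 tested past that p, summed to 30.2 to 41.4 FPKM in KO libraries, against 148, 22.7 and 25.4 FPKM in floxed replicates 1, 2 and 3, which set floxed replicate 1 apart. Urothelial markers, of the lining of the renal pelvis, 0 of 5 past that p, summed to 5.65 to 54.5 FPKM in KO libraries, against 37.0, 23.1 and 89.5 FPKM in floxed replicates 1, 2 and 3. Floxed replicate 3, the highest there, was also the highest floxed library for 8 of the elastic fibre and fibulin genes, all but Fbln2 and Efemp1. Mesothelial markers, 1 lower and 1 higher of 5 tested, summed to 59.9 to 238 FPKM in KO and 87.7 to 173 FPKM in floxed libraries, with Lrrn4 under 0.5 FPKM in all 6. The adipose markers Adipoq, Plin1 and Cidec were under 0.5 FPKM in every library. Without KO replicate 3, the adjusted limma threshold was passed by 1 of 5 urothelial markers as lower, by 1 of 5 mesothelial markers in each direction, and by 0 of 8 endothelial and 0 of 6 lymphocyte markers (1 and 0 at an unadjusted p under 0.05). Of all genes tested, 15.4% then passed as lower and 9.02% as higher, and 27.1% were lower at an unadjusted p under 0.05. For the endothelial, lymphocyte, urothelial and mesothelial lists, their part in the values was not tested.

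**Figure D4:**
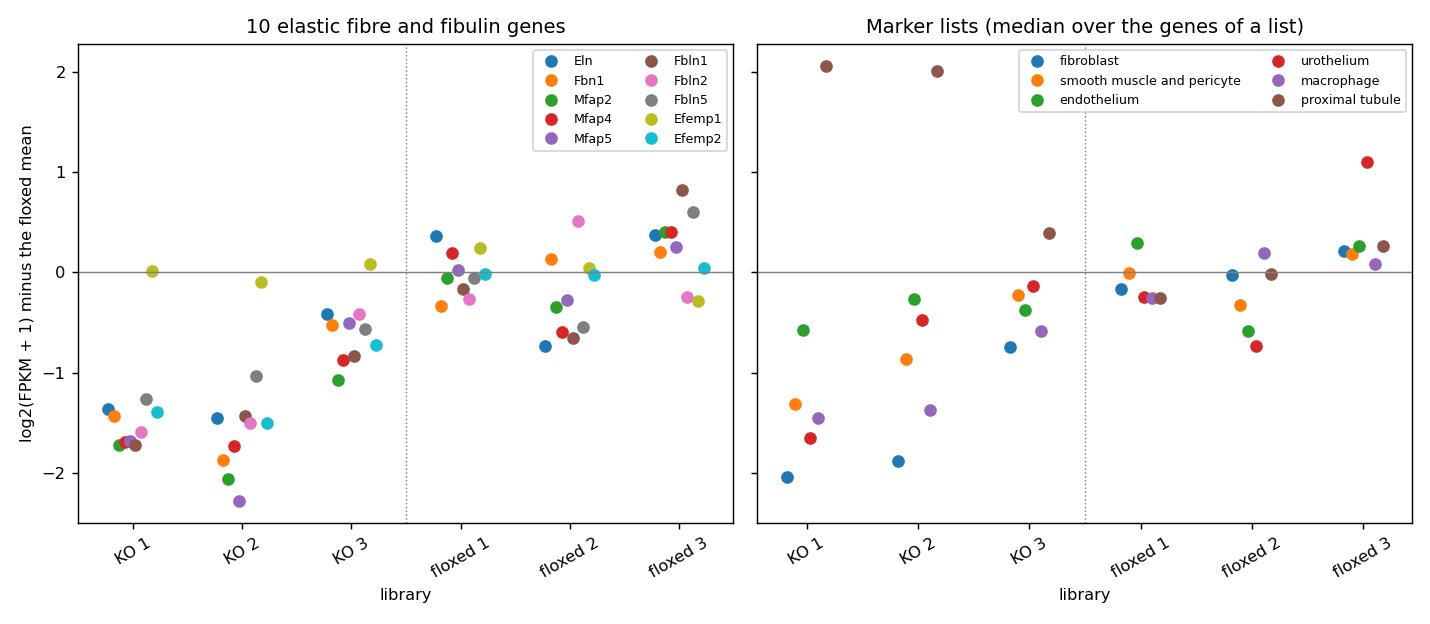
Difference of each library from the floxed mean on the log2(FPKM + 1) scale, for the 10 genes (left) and for 6 marker lists (right, median over the genes of a list); KO libraries stand left of the dotted line. KO replicate 3 lies above the other KO libraries for every gene, and its fibroblast median is -0.74 against -2.04 and -1.88 in KO replicates 1 and 2.

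Genes that work with the elastic fibre were taken from 7 lists of 66 genes, of which 65 were found and 56 tested. Fbn2 was tested only through the floxed group, its KO values all being under 1 FPKM, and is left out of the next count. Of the other 55, 24 were lower and 1 was higher in KO kidneys at an unadjusted limma p under 0.05, against 16.3% lower and 8.38% higher of all genes tested. None passed the adjusted limma threshold. Without KO replicate 3, 34 of all 56, Fbn2 included, passed as lower and 2 as higher, against 15.4% lower and 9.02% higher of all genes tested. As lower these were 4 of 4 lysyl oxidases, 4 of 5 latent TGF-beta binding proteins and fibrillin 2, 2 of 8 other fibulin, EMILIN and microfibril-associated genes and 4 of 6 ADAMTS and ADAMTS-like genes. The rest were 6 of 9 proteases, 5 of 11 receptors and 9 of 13 TGF-beta genes, and the last list had 12 of 13 lower at an unadjusted limma p under 0.05 in that setting.

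The lysyl oxidases, which crosslink elastin and collagen, were lower at an unadjusted p under 0.05 in 4 of the 4 tested (16.3% of all genes tested). Their median log2 fold change was -1.26. Loxl4 was too low to be tested. Lox read 7.84, 4.24 and 14.5 FPKM in KO replicates 1, 2 and 3, against 24.38, 35.53 and 24.92 FPKM in floxed replicates 1, 2 and 3 (limma adjusted p = 0.0759). Loxl1, the family member most tied to elastin, stood at 6.59 ± 4.07 FPKM in KO and 17.3 ± 4.08 FPKM in floxed kidneys, and Loxl3 at 2.67 ± 1.06 and 6.67 ± 0.597 FPKM in the same order. The groups did not overlap in any of the 4, and all KO libraries lay below all floxed libraries for 21.7% of all genes tested.

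Of the 4 latent TGF-beta binding proteins, 3 were lower at an unadjusted limma p under 0.05 (16.3% of all genes tested). With Fbn2 counted it was 4 of 5, and 3 of 5 with median-ratio scaling. Fibrillin 2 (Fbn2), the form that predominates in development, read 0.35, 0.09 and 0.3 FPKM in KO replicates 1, 2 and 3, against 1.58, 3.53 and 2.31 FPKM in floxed replicates 1, 2 and 3. Every KO library was below every floxed library, which the filter made likely, so its values are a description. Ltbp3, a latent TGF-beta binding protein, read 16.74, 20.35 and 18.2 FPKM in KO replicates, against 36.18, 31.93 and 29.9 FPKM in floxed replicates 1, 2 and 3 (limma adjusted p = 0.0547). KO replicate 3 was not the highest KO library for Ltbp3, unlike for the 10 genes. Ltbp4, which binds fibulin 5 and elastin, overlapped between the groups at 11.6 ± 3.95 FPKM in KO and 21.9 ± 9.63 FPKM in floxed kidneys (limma adjusted p = 0.233).

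Among the other fibulin, EMILIN and microfibril-associated genes 2 of 8 tested were lower at an unadjusted p under 0.05 (16.3% of all genes tested). They were Emilin1, an elastin-bound glycoprotein, at 15.4 ± 6.93 FPKM in KO and 41.2 ± 7.22 FPKM in floxed kidneys, and Fbln7 at 3.44 ± 0.895 FPKM in KO and 10.2 ± 3.26 FPKM in floxed kidneys. The list median was -0.25. Of 6 tested ADAMTS and ADAMTS-like genes that bind microfibrils, 2 were lower at that p. Adamts10 read 13.5 ± 2.11 FPKM in KO and 30.6 ± 9.20 FPKM in floxed kidneys, and Thsd4 read 2.26 ± 0.929 and 4.40 ± 1.31 FPKM in the same order.

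Proteases that can cut elastin were lower at an unadjusted p under 0.05 in 5 of 9 tested, with a median of -1.25. At that p 16.3% of all genes tested were lower and 8.38% higher. Cathepsin K (Ctsk) stood at 8.30 ± 3.02 FPKM in KO and 26.4 ± 5.07 FPKM in floxed kidneys, and the gelatinase Mmp2 at 4.51 ± 2.23 FPKM in KO and 23.1 ± 12.4 FPKM in floxed kidneys. Of 11 receptors for elastin, fibrillin and fibulins, 4 were lower and 1 higher at that p (3 lower and 1 higher with median-ratio scaling), with a median of -0.16. Integrin beta 5 (Itgb5) read 59.0 ± 6.21 FPKM in KO and 105 ± 23.6 FPKM in floxed kidneys, and integrin alpha 8 (Itga8) 1.75 ± 0.234 and 3.86 ± 1.30 FPKM in the same order. The higher gene was Glb1, which also yields the elastin-binding protein, at 50.8 ± 8.63 FPKM in KO and 36.9 ± 5.10 FPKM in floxed kidneys. Glb1 was named after its values were seen. Of 13 TGF-beta ligands, receptors and readouts, 4 were lower at that p, with a median of -0.55. Tgfb3 read 1.81 ± 0.875 FPKM in KO and 6.12 ± 1.78 FPKM in floxed kidneys.

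**Figure D5:**
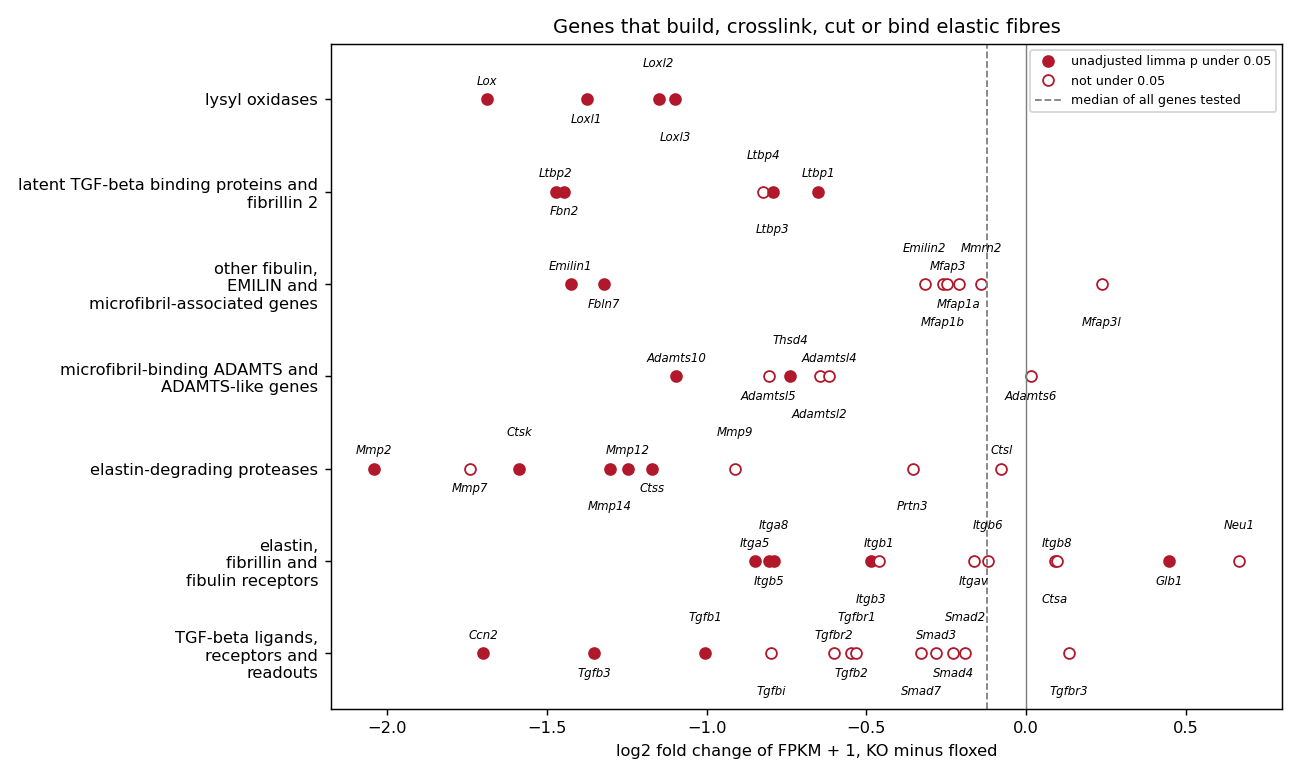
Log2 fold change of FPKM + 1, KO minus floxed, for 55 of the 56 tested genes of 7 lists (a filled point has an unadjusted limma p under 0.05; the dashed line is the median of all genes tested). The 4 lysyl oxidases lie between -1.69 and -1.10, while the receptors and the TGF-beta genes run across 0.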

How the data were processed

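The deposited table holds FPKM per gene and library, given to 2 decimals by the authors, as the file headers name the unit. Per the submitters' processing notes, the build was mm9. RNA was extracted with TRIzol and libraries followed an Illumina protocol, per the labels' protocols. Aligner, counter, annotation, filters and strand use: not given in the sources used here. Exons of Eln, Fbn1, Mfap4 and Efemp2 overlap a gene on the opposite strand in GENCODE M21. The largest exon overlap was 212 bases for Eln, 2442 for Fbn1, 89 for Mfap4 and 173 for Efemp2. Without knowing strand use, it is unclear whether reads in these shared stretches were told apart. FPKM is relative to all mapped fragments, so abundant genes can move the rest.

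Depth was estimated from short genes with a single coding transcript in GENCODE M21, whose low values fall near whole multiples of 1 fragment. At the best depth 67.8% to 71.8% lay within 0.2 of a whole number, and the median over all depths tried was 34.2% to 37.3%.

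Values were converted to log2(FPKM + 1) and tested, KO against floxed, in R 4.3.3 with limma 3.58.1. Its variance prior followed the mean level, the model held only the group, and tests were two-sided. The code was tested on simulated data. Exact permutation tests used the 20 splits of 6 libraries into 3 and 3, in Python 3.11.15 with scipy 1.17.1. All libraries differed in their values. The text names the 10 genes, Abl1, the 2 genes with the smallest p in each of 7 lists, and Lox, Loxl1, Ltbp4, Fbn2 and Emilin1. Glb1, Dcn, Loxl4, Ly6a, Lrrn4, Adipoq, Plin1 and Cidec were named outside that rule, after their values were seen. Of the genes under the rule, 1 is not reported here, though the counts of its list include it. The members, the lists and that rule were chosen with earlier results of these data known.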

Additional observations from a re-analysis of the deposited data

How the results depend on the processing

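The 9 genes with a lower mean in KO kidneys kept that direction under all 13 alternatives run, and the median of the 10 genes ran from -1.46 to -1.10 over 7 settings and from -1.56 to -1.03 with 1 library left out. Efemp1 changed sign with TPM scaling (-0.052) and ran from -0.14 to 0.12 with 1 library left out. The count of the 10 genes at an unadjusted limma p under 0.05 was 9 in the 7 settings and 6 to 9 with 1 library left out. Of the 13390 genes of the main fit, 1489 to 2177 were lower at that p in the 7 settings. With 1 library left out it was 1357 to 3633. The count of the 10 genes past the adjusted threshold was 0 in the 7 settings. It was 0 to 9 with 1 library left out, the 9 being without KO replicate 3. For the genes of the 7 lists it was 0 and 0 to 36, the 36 also without KO replicate 3. Over all genes 9 passed, with 3303 at an unadjusted limma p under 0.05. The count was 1 with a pseudocount of 0.1, median-ratio scaling, a filter on the mean (5 FPKM or more) or limma without its trend, 0 with no filter (3843 at an unadjusted limma p under 0.05), and 0 to 3271 with 1 library left out. It was 2 without KO replicate 1, 1 without KO replicate 2, 3271 without KO replicate 3, 13 without floxed replicate 1, and 0 without floxed replicate 2 or 3 (2298 and 2146 at that p). The cause was not tested. Median-ratio scaling moved the median of all genes tested from -0.12 to 0.02, with 1519 genes lower and 1808 higher at an unadjusted p under 0.05, against 2181 and 1122 as deposited.

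The replicate numbers pair the libraries by number only. Same-numbered libraries had deviations from their group means that correlated at -0.126, -0.0699 and 0.0340 across genes, and not every library correlated best with its own number. With the replicate block 2 genes passed the adjusted limma threshold, none of them among the 10. At an unadjusted limma p under 0.05, 9 of the 10 were then lower, against 1842 of all 13390 genes tested. Among the 10 genes depth limits Mfap5 most, with about 33 fragments in its lowest library.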
